A study of Mus musculus with 5 samples.

Results

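The 9 genes Lyz2, Cd68, Marco, Msr1, Csf1r, Ctsk, Ear2, C1qa and C1qb, which mark macrophages of the lung, were followed through pools of whole mouse lung. A gene was represented by the probe sets that the platform annotation ties to it alone, and the probe set with the highest mean intensity stood for it. By that rule 8 of the 9 genes had a value, of 12393 genes in all, and the expression of Ear2 was not analysed here. Of the 8, 7 exceeded the noise floor in at least 1 pool and 4 (Lyz2, Csf1r, C1qa and C1qb) exceeded it in every pool. Among wider lists, 19 of 25 alveolar macrophage genes and 15 of 29 interstitial and resident macrophage genes with a probe set exceeded it in at least 1 pool. Defining genes were on both sides: Chil3 and Ccl6 exceeded it in all 5 pools, while Siglecf, Pparg, Adgre1, Fcgr1 and Cx3cr1 were under it in all of them. The noise floor was a scaled intensity of 276.2, the 50th percentile of all values, and lower values were raised to it before any ratio.

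Each of 5 conditions was measured on 1 array with RNA pooled from several animals, so there are no replicates, no test was run, and differences are values of single pools. The raised-pressure pools were lungs of SM22-tet-BMPR2delx4+ mice given doxycycline (called induced here) and lungs of FVB/N mice kept hypoxic for 4 weeks and aged 8 weeks, both with a right ventricular pressure of 50 ± 8 mmHg. The pools of normal pressure, 30 ± 3 mmHg, were SM22-rtTA mice on doxycycline, BMPR2delx4+ mice without doxycycline (uninduced), and wild-type FVB/N mice aged 8 weeks. The titles of the transgenic pools also give 8 weeks, without saying of what, and the kind of error after each pressure is not stated. BMPR2 is the type 2 receptor for bone morphogenetic proteins that is mutated in heritable pulmonary arterial hypertension, and SM22 is a promoter of smooth muscle, which by name drives the doxycycline-dependent activator rtTA. How many animals made up a pool is unstated.

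Macrophages of the lung comprise alveolar macrophages, which live in the airspace, clear surfactant and inhaled particles and depend on granulocyte-macrophage colony-stimulating factor, and interstitial macrophages, which lie around vessels and airways and depend more on signalling through Csf1r. Marco and Msr1 are class A scavenger receptors of the cell surface, and lysozyme, cathepsins and Cd68 belong to the phagocytic and lysosomal equipment. C1qa and C1qb encode chains of C1q, the recognition molecule of the classical complement pathway, which macrophages produce outside the liver. The transcription factor PU.1, encoded by Spi1, drives many genes of these cells. Several of the genes are shared with other cells: Lyz2 with alveolar type 2 cells and neutrophils, and Ctsk with osteoclasts and fibroblasts.

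The sequences upstream of Ear2 and Lyz2 are shown first because both genes have close copies, whose transcripts a probe set may not tell apart. Ear2 belongs to a cluster of eosinophil-associated ribonucleases on chromosome 14, and the 250 bases before its start were 97.6% identical to those of Ear1 over the alignment, and 90.6% identical to those of Ear10. The longest run that Ear2 and Ear1 share without a difference is in capitals (RefSeq, GRCm38.p6; Ear2 at chr14:44102404-44102653, plus strand, and Ear1 at chr14:43819640-43819889, minus strand).
Ear2: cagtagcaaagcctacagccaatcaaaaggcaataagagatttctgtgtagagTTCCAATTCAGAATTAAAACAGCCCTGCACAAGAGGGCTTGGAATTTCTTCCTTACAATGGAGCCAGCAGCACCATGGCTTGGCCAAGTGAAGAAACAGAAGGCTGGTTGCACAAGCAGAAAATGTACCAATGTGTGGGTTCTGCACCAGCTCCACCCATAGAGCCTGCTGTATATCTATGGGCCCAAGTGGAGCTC
Ear1: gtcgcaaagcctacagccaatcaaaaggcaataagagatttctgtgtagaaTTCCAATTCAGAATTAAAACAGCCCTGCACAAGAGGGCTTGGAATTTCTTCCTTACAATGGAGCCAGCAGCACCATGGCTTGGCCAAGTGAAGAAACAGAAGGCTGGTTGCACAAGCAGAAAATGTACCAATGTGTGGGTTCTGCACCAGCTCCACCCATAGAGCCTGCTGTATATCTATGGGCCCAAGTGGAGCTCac
That run is 197 bases long. With no probe set of Ear2 by the rule, the family is represented below by Ear3 and by Rnase2a, also called Ear11.

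Lyz2 has a neighbour of the same kind, Lyz1, on chromosome 10, and 79.4% of the aligned columns were identical over the 250 bases before both starts. The longest run shared by both, 50 bases, is in capitals and lies near the starts (RefSeq, GRCm38.p6; Lyz2 at chr10:117282273-117282522 and Lyz1 at chr10:117292869-117293118, both minus strand).
Lyz2: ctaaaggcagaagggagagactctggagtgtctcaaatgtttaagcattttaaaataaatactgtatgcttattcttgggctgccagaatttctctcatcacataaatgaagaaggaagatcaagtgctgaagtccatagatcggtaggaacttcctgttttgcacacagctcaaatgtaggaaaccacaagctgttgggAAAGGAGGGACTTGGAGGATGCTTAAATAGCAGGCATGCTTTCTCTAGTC
Lyz1: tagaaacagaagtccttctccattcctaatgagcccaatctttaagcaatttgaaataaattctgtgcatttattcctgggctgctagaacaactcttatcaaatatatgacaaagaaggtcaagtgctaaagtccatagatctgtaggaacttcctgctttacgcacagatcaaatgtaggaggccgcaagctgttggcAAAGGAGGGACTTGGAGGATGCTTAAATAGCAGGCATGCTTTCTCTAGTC
Whether the probe sets of Lyz2 and Lyz1 read both transcripts was not tested, and their values stand side by side below.

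The core of a PU.1 binding motif, GAGGAA, was looked for on both strands in the 250 bases before the start of the 6 members whose upstream sequence was searched. It occurred in 4 of them (Marco, Ctsk, C1qb and Cd68) and in 23.3% of 32851 upstream windows of mouse genes. The match nearest to the start, which for Ctsk lies on the opposite strand and reads TTCCTC, is shown in capitals within 50 bases, as a description of the letters and not as a site of binding (RefSeq, GRCm38.p6). The windows lie at chr1:120505143-120505192 (minus strand), chr3:95499130-95499179 (plus strand), chr4:136886203-136886252 (minus strand) and chr11:69666368-69666417 (minus strand).
Marco: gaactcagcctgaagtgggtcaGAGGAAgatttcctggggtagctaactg
Ctsk: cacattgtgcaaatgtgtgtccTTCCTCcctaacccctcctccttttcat
C1qb: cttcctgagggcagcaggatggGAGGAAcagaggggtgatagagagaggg
Cd68: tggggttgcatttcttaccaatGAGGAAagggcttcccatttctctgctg
Lyz2 and Ear2 had no match in this window. Of the genes that hold the letters, Marco was under the noise floor in every pool, and Cd68 and Ctsk were at or near it. The probe sets of C1qb differed. Whether these genes share a pattern over the pools could therefore not be seen.

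Lyz2, the secreted muramidase that cleaves bacterial cell walls, was lower in the induced pool than in every other pool. Its scaled intensity was 5464 in the induced pool and 8721 in the hypoxic pool, against 8623 in SM22-rtTA, 8558 in uninduced BMPR2delx4+ and 8035 in wild type. The other 4 pools lay close together. The log2 ratio of the induced pool was -0.65 over the uninduced pool and -0.66 over SM22-rtTA, 1.57-fold and 1.58-fold lower, and that of the hypoxic pool was 0.12 over wild type. A pair of probe sets assigned to Lyz1 also had their lowest value in the induced pool, with 7054 and 5587 in the induced pool, against 10229 and 8363 in the uninduced pool and log2 ratios of -0.54 and -0.58, both short of 1.5-fold. Over SM22-rtTA they were at -0.30 each, a smaller difference than that of Lyz2. The third Lyz1 probe set was at the floor in every pool but the hypoxic one, where it had 348.6.

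Markers of 2 other cell types that express lysozyme are given beside Lyz2. Of all 8597 measured genes, 5.09% were at least 1.5-fold higher and 2.58% lower in the induced over the uninduced pool. Over SM22-rtTA the shares were 9.79% and 6.16%. Of 19 alveolar type 2 markers, 1 was higher and 5 lower in the induced pool over the uninduced pool, and 1 and 7 over SM22-rtTA; 18 had a ratio below 0 in each comparison, with medians of -0.43 and -0.45. Their summed intensity was 69491 in the induced pool and 91333 in the hypoxic pool, against 90084 in SM22-rtTA, 86820 in the uninduced pool and 79961 in wild type. The list had 20 genes, of which 1 had no probe set. The aspartic protease Napsa, which processes surfactant proteins, was at 1452 in the induced pool, against 2936 in the uninduced pool. Of 13 neutrophil markers, 0 were higher and 9 lower in the induced than in the uninduced pool (S100a8 at 2174 against 7119), with a median of -1.06, and 1 was higher and 5 lower than in SM22-rtTA. Their summed intensity was 7540 in the induced pool, 8507 in the hypoxic pool, 13221 in SM22-rtTA, 20889 in the uninduced pool and 5120 in wild type. At the floor were 7 of the 13 in the induced pool, 2 in the uninduced pool and 7 in wild type. The neutrophil ratios and sums thus take in floored values. Lcn2 and Chil1 are on both lists, and over the uninduced pool they were among the lower genes of each. Wild type had the lowest neutrophil sum and, at 8035, a Lyz2 value near those of the hypoxic and transgenic control pools. The part of either cell type in the Lyz2 difference was not tested. In pooled whole lung, fewer cells of a type and less RNA per cell cannot be told apart. Skeletal muscle genes summed to 79543 in the induced pool and 20884 in the hypoxic pool, against 6229 to 7903 in the pools of normal pressure. The part of such RNA in the Lyz2 and type 2 values was not tested either.

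Csf1r, the receptor for CSF1 and interleukin-34 that maintains most tissue macrophages, was nearly level. It had a scaled intensity of 2005 in the induced pool and 2008 in the hypoxic pool, against 1863 in SM22-rtTA, 1922 in the uninduced pool and 1642 in wild type. The highest pool was 1.22-fold above the lowest, with wild type the low one. A further probe set of Csf1r, ending in s_at, had 1210 in the induced pool and 1242 in the hypoxic pool, against 1175, 1220 and 1159 in SM22-rtTA, uninduced and wild-type lungs. The third gave 519.5 in the induced pool and 769.3 in the hypoxic pool, against 696.8, 656.7 and 703.8 in SM22-rtTA, uninduced and wild-type lungs. On it the induced pool was the lowest, with a log2 ratio of -0.34 over the uninduced pool where the first had 0.06, so the probe sets of Csf1r disagreed on the induced pool.

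The C1q chains did not follow each other closely. C1qa, the A chain, had 903.0 in the induced pool and 856.4 in the hypoxic pool, against 686.5 in SM22-rtTA, 784.8 in the uninduced pool and 771.3 in wild type. Both raised-pressure pools were above all 3 normal-pressure pools, by less than 1.5-fold in every comparison made: the log2 ratios were 0.20 and 0.40 for the induced pool over uninduced and SM22-rtTA lungs, and 0.15 for hypoxia over wild type. C1qb, the B chain, had 392.6 in the induced pool and 408.4 in the hypoxic pool, against 280.6 in SM22-rtTA, 397.3 in the uninduced pool and 431.8 in wild type. Here SM22-rtTA was the low pool, at 1.42-fold under the uninduced pool. A second C1qb probe set put SM22-rtTA among the high pools instead, with 292.6 in the induced pool and 387.0 in the hypoxic pool, against 389.0, 298.4 and 397.9 in SM22-rtTA, uninduced and wild-type lungs. The third was at the floor throughout. C1qc, the C chain, whose gene lies between those of C1qa and C1qb on chromosome 4, had 461.0 in the induced pool and 535.2 in the hypoxic pool, against 531.4, 510.0 and 557.2 in SM22-rtTA, uninduced and wild-type lungs. The C chain was lowest in the induced pool, where the A chain was highest. The highest C chain value was only 1.21-fold above the lowest.

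The scavenger receptors were near or under the noise floor. Marco, which binds bacteria and inhaled particles on alveolar macrophages, did not exceed the floor in any pool, with scaled values between 75.1 and 189.7, and has no ratio here. Msr1, which takes up modified lipoproteins, had 363.2 in the induced pool and 447.2 in the hypoxic pool, against 342.3 in SM22-rtTA, 365.5 in wild type and the floor in the uninduced pool. The hypoxic pool was the high one and the uninduced pool the low one. The hypoxic pool was 1.22-fold above wild type, and at least 1.45-fold above the mean of the uninduced and SM22-rtTA pools. The induced pool was at least 1.31-fold above the uninduced pool and 1.06-fold above SM22-rtTA. The other 3 Msr1 probe sets were at the floor in all 5 pools.

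Cd68 and Ctsk, the lysosomal members, were at or near the floor. Cd68, a heavily glycosylated protein of late endosomes, exceeded it in the SM22-rtTA pool alone, at 512.8, at least 1.86-fold above each of the other pools, whose scaled values were 157.2 (induced), 275.3 (hypoxia), 192.0 (uninduced) and 226.6 (wild type). Ctsk, a collagen- and elastin-degrading cysteine protease, had 281.8 in the induced pool and 280.2 in SM22-rtTA and was at the floor in the other 3, so that no difference could be seen at this intensity. The plot of members by pool shows these levels with every probe set.

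**Figure D1:**
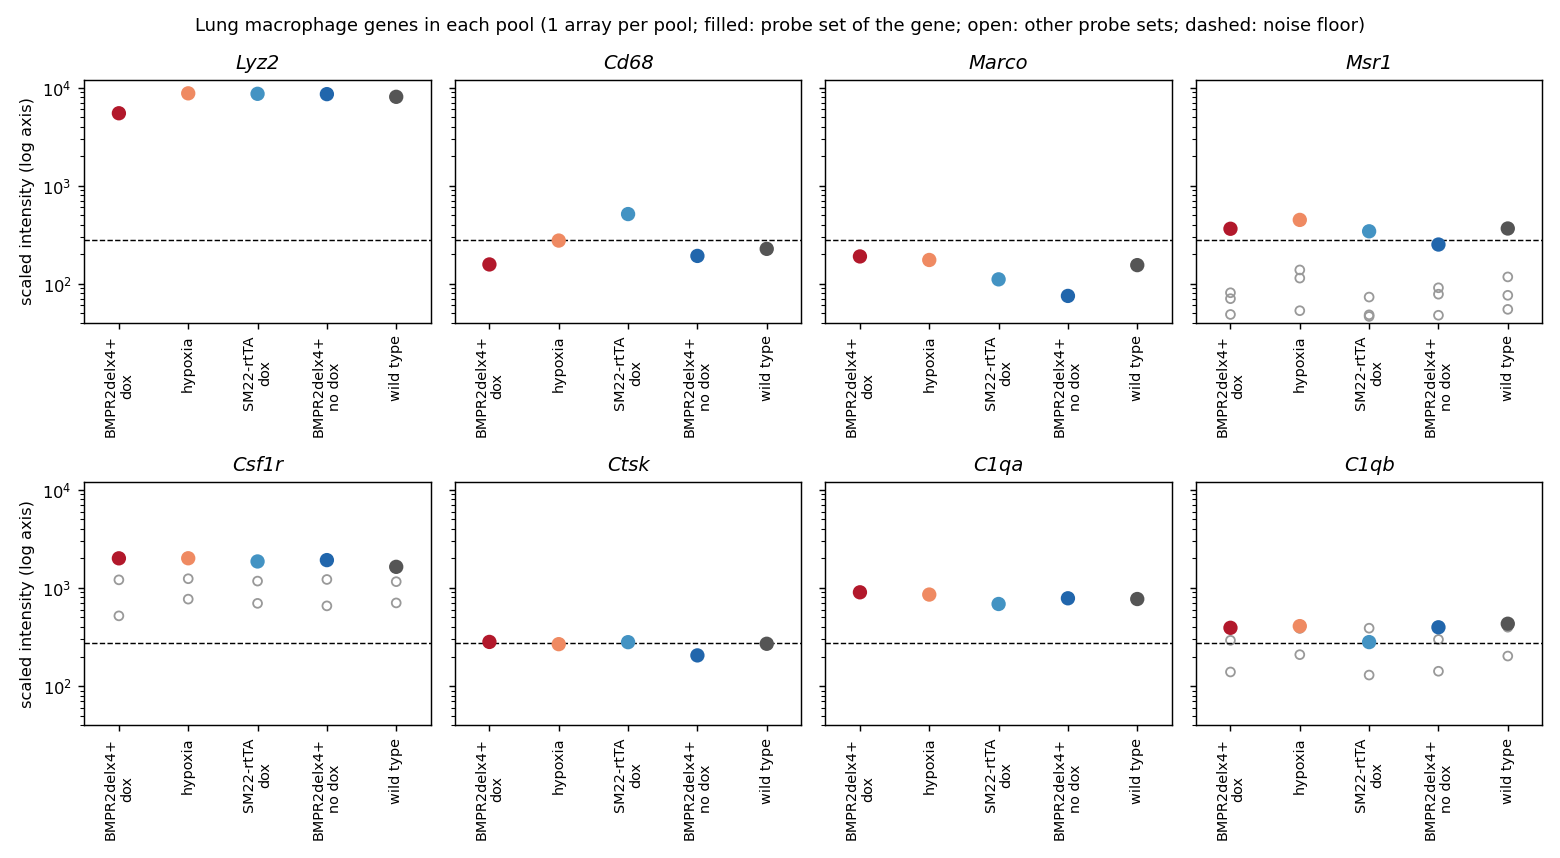
Scaled intensity (log axis) of each macrophage gene in the 5 pools, 1 array per pool. Filled points are the probe set that stands for the gene, open points its other probe sets and the dashed line the noise floor of 276.2; Lyz2 is low in the induced pool at 5464, Cd68 exceeds the floor in SM22-rtTA alone and Marco in no pool.

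Induction of the mutant receptor was set against the uninduced pool of the same genotype. Of the 7 members measured, 1 (Lyz2) was at least 1.5-fold lower and 0 were higher, while 2.58% of all 8597 measured genes were lower and 5.09% higher. The median log2 ratio of the members was 0.03 and that of all measured genes 0.00. The members' median is the Ctsk ratio, which rests on a value near the floor, and Cd68 was at the floor in both pools. Lyz2 was also below all 3 pools of normal pressure, as were 1.33% of all genes at the same fold. Without Lyz2, the summed intensity of the members, with values under the floor counted as the floor, was 4222 in the induced pool and 4272 in the hypoxic pool, against 3965 in SM22-rtTA, 3933 in the uninduced pool and 3763 in wild type.

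Against SM22-rtTA, which shares doxycycline but not the mutant receptor, 2 of the 7 members were lower in the induced pool and 0 higher, with 6.16% of all genes lower and 9.79% higher. Lyz2 was 1.58-fold lower and Cd68 at least 1.86-fold lower, the Cd68 difference resting on the SM22-rtTA value, since Cd68 was at the floor in the other pools. Of these Lyz2 was also below all 3 normal-pressure pools, a rule met by 3.64% of all genes. The members' median was 0.09 and that of all genes 0.01. C1qb and C1qa had the highest ratios, 0.49 and 0.40. The C1qb ratio rests on a SM22-rtTA value of 280.6, near the floor, and a second C1qb probe set had -0.41. This comparison and the one before share the induced pool.

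Hypoxia was set against wild type of the same strain, and 0 of 7 members were at least 1.5-fold higher or lower, where 7.63% of all genes were higher and 12% lower. The members' ratios lay between -0.08 (C1qb) and 0.29 (Csf1r and Msr1), with a median of 0.12 beside 0.03 over all genes. Cd68 and Ctsk were at the floor in both pools and entered the median as no difference. The wild-type pool was high in kidney markers: 16 kidney tubule markers summed to 13128 in the hypoxic pool and to 78379 in wild type, and to between 9749 and 11143 in the 3 transgenic pools. Of 22 leukocyte and myeloid genes, 13 were lowest in wild type. The part of this in the small positive ratios was not tested. Against the mean of the uninduced and SM22-rtTA pools, whose kidney sums are low, again 0 of 7 were higher or lower. Over all genes 12.2% were higher and 4.3% lower. The median was 0.09, with ratios between -0.45 (Cd68) and at least 0.54 (Msr1). For Cd68 the hypoxic and uninduced pools were both at the floor, so its ratio is not a bound. It was -0.19 with the floor at the 30th percentile.

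Between SM22-rtTA and uninduced BMPR2delx4+, both of normal pressure, 1 of 7 members differed by 1.5-fold, Cd68 being at least 1.86-fold higher in SM22-rtTA, with 3.05% of all genes higher and 4.57% lower. The median was 0.01. Among genes that exceeded the floor everywhere, the log2 ratio between these 2 pools had an SD of 0.34, which stands in for a spread between arrays and takes in the transgene and the drug as well. Beyond that SD lay Lyz2 in both comparisons of the induced pool, Cd68 in the 3 comparisons that take in SM22-rtTA, Msr1 for the induced over the uninduced pool and for hypoxia over the mean of the transgenic pools, C1qa for the induced pool over SM22-rtTA, and C1qb for the induced pool over SM22-rtTA and for SM22-rtTA over the uninduced pool. The other ratios of the members lay within it, those of Csf1r in all 5 comparisons by the probe set that stands for it. With the floor at the 30th percentile, the Cd68 ratio of hypoxia was -0.19, within the SD. The C1qb ratios rest on a SM22-rtTA value near the floor. A second C1qb probe set had -0.41 for the induced pool over SM22-rtTA and 0.38 for SM22-rtTA over the uninduced pool. The same SD was 0.36 for the induced pool over the uninduced one, 0.48 over SM22-rtTA, and 0.55 for hypoxia over wild type.

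**Figure D2:**
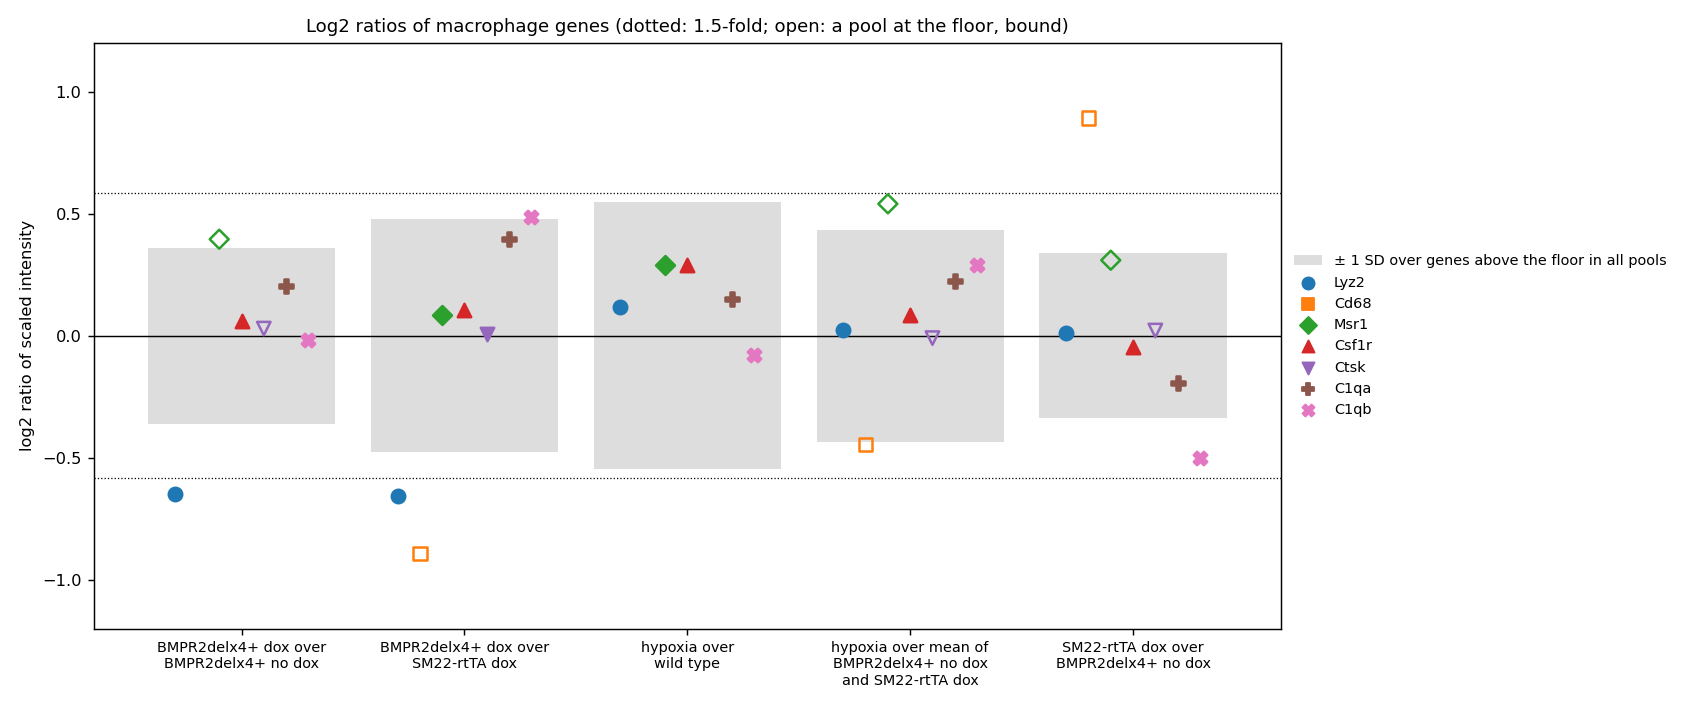
Log2 ratio of scaled intensity for the 7 measured macrophage genes in the 5 comparisons, 1 point per gene. Open symbols have a pool at the noise floor and are bounds, except where the hypoxic pool and a reference pool are both at it. Genes with both sides at the floor are left out. Grey bands are ± 1 SD over the genes that exceeded the floor in every pool, and dotted lines mark 1.5-fold. Lyz2 lies near -0.65 in both comparisons of the induced pool. Cd68 lies beyond 1.5-fold where SM22-rtTA is compared with a BMPR2delx4+ pool.

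Likeness of pattern was measured as the root mean square difference of log2 values over the 5 pools, after centring each gene, among the 5894 genes that exceeded the floor in every pool. The genes nearest to Lyz2 were the ribonuclease Rnase4, at 0.018, and the transglutaminase Tgm2, at 0.072. Rnase4 had 2156 in the induced pool and 3567 in the hypoxic pool, against 3429, 3445 and 3237 in SM22-rtTA, uninduced and wild-type lungs. The nearest member to Lyz2 was Csf1r, at position 1847 of 5893. Nearest to Csf1r were Ubtf (0.019) and Gpalpp1 (0.023), to C1qa Pex14 (0.016) and Tpp2 (0.020), and to C1qb Txnrd1 (0.029) and Tsc22d3 (0.042). The other members were closer to C1qa than to Lyz2: from C1qa, Csf1r stood at position 300 and C1qb at 765, and C1qa stood at position 515 from Csf1r and at 264 from C1qb. With 5 pools many genes share a pattern this closely.

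Other genes of alveolar macrophages differed with the control used. Of 19 measured, 1 was at least 1.5-fold higher and 1 lower in the induced than in the uninduced pool, with a median of 0.00, and 2 were higher and 6 lower than in SM22-rtTA, with a median of -0.37. Between the controls, 4 were higher and 1 lower in SM22-rtTA over the uninduced pool, with a median of 0.29, and 8 of the 19 were highest in SM22-rtTA. Mrc1, the mannose receptor, was among the 6 and had 390.5 in the induced pool, against 704.3 in SM22-rtTA and 367.9 in the uninduced pool. The chemokine Ccl6 was the one lower than in the uninduced pool, at 473.4 in the induced pool and 1462 in the hypoxic pool, against 1680 in SM22-rtTA, 1233 in the uninduced pool and 991.3 in wild type. Fabp4, a fatty acid carrier of macrophages and of fat, was the one higher than in the uninduced pool, at 3521 in the induced pool and 2168 in the hypoxic pool, against 1457, 1091 and 6267 in SM22-rtTA, uninduced and wild-type lungs. Fat markers other than Fabp4 and Lpl, 10 measured, summed to 10201 in the induced pool and 5749 in the hypoxic pool, against 5206, 5037 and 9982 in the same order, and their part in the Fabp4 value was not tested. In hypoxia over wild type 4 of the 19 were higher and 3 lower, with a median of 0.30, and 5 were higher and 0 lower over the mean of the transgenic pools. Among these 5 were the keratin Krt79 and the cytokine Il18 (835.4 in hypoxia, against 614.8 in SM22-rtTA and 307.0 uninduced). Over all genes, 5.09% were higher and 2.58% lower in the induced over the uninduced pool, and 9.79% and 6.16% over SM22-rtTA. For SM22-rtTA over the uninduced pool the shares were 3.05% and 4.57%. For hypoxia they were 7.63% and 12% over wild type, and 12.2% and 4.3% over the mean of the transgenic pools.

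Chil3, Ear3 and Rnase2a were lower in both BMPR2delx4+ pools than in the other pools. Chil3, a chitinase-like protein secreted by alveolar macrophages, had 318.0 in the induced pool and 2806 in the hypoxic pool, against 1011 in SM22-rtTA, 438.6 in the uninduced pool and 1459 in wild type. Ear3 was at the floor in both BMPR2delx4+ pools, with and without doxycycline, and had 1037 in the hypoxic pool, against 1127 in SM22-rtTA and 714.8 in wild type. Rnase2a was likewise at the floor in both BMPR2delx4+ pools and had 533.6 in the hypoxic pool, against 340.2 in SM22-rtTA and 479.0 in wild type. For Ear3, the log2 ratio of SM22-rtTA over the uninduced pool was at least 2.03, and the probe set, ending in x_at, may read several members of the family. For Rnase2a the same ratio was at least 0.30, short of 1.5-fold and resting on a value near the floor. Rnase4 was not low in the uninduced pool, at 3445 against 3429 in SM22-rtTA.

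**Figure D3:**
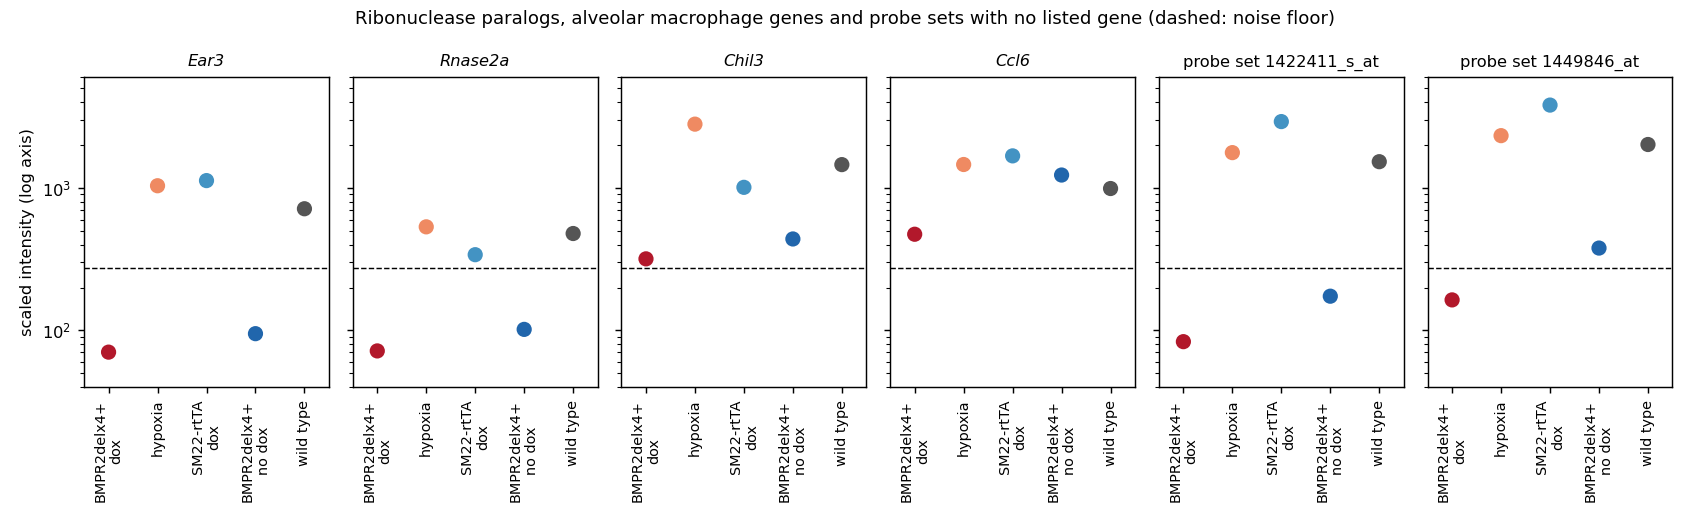
Scaled intensity (log axis) by pool of the ribonucleases Ear3 and Rnase2a, the alveolar macrophage genes Chil3 and Ccl6, and a pair of probe sets with no listed gene; the dashed line is the noise floor of 276.2. Ear3 and Rnase2a lie under the floor in both BMPR2delx4+ pools and above it in hypoxia, SM22-rtTA and wild type.

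The interstitial and monocyte genes beside Csf1r, and the lists that follow them, are given with the shares over all 8597 measured genes. Those shares, higher and lower, were 5.09% and 2.58% for the induced over the uninduced pool, and 9.79% and 6.16% over SM22-rtTA. They were 7.63% and 12% for hypoxia over wild type, and 12.2% and 4.3% over the mean of the transgenic pools. Of 15 measured genes of interstitial and resident macrophages, 1 was higher and 2 lower in the induced than in the uninduced pool, 0 and 1 over SM22-rtTA, 3 and 1 in hypoxia over wild type, and 1 and 4 over the mean of the transgenic pools. Cd14 and Lyve1, the lower ones on induction, were highest in the uninduced pool, at 2361 and 2434. Of 11 monocyte genes, 1 was higher and 1 lower on induction over the uninduced pool, and 2 and 0 in hypoxia over wild type.

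Among genes that act with Csf1r or in myeloid transcription, Spi1 and the granulocyte receptor Csf3r were lower on induction over both controls. Spi1, which encodes PU.1, had 329.8 in the induced pool and 424.3 in the hypoxic pool, against 670.8 in SM22-rtTA, 569.7 in the uninduced pool and 300.2 in wild type. The ligand Csf1 had 558.2 in the induced pool and 1005 in the hypoxic pool, against 513.8, 475.6 and 806.7 in SM22-rtTA, uninduced and wild-type lungs. The hypoxic pool was thus highest for the ligand and the SM22-rtTA pool for Spi1. Of 22 genes of the list, 0 were higher and 2 lower on induction over the uninduced pool, 0 and 4 over SM22-rtTA, 3 and 1 in hypoxia over wild type, and 2 and 3 over the mean of the transgenic pools.

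Of 22 general leukocyte and myeloid genes, 14 were highest in SM22-rtTA, the pool in which Cd68 exceeded the floor. The list summed to 21187 in the induced pool and 24072 in the hypoxic pool, against 31508 in SM22-rtTA, 25213 in the uninduced pool and 19845 in wild type. On induction 0 were higher and 4 lower over the uninduced pool, and 0 and 13 over SM22-rtTA, with Tyrobp, an adaptor of activating receptors, at 636.2 in the induced pool, against 1841 in SM22-rtTA. Hypoxia had 11 higher and 1 lower over wild type, with a median of 0.64, and 1 and 5 over the mean of the transgenic pools, with a median of -0.36. The direction of this list in hypoxia thus depended on the control; its part in the Cd68 value was not tested.

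Around C1qa and C1qb, 0 of 19 complement genes were higher and 1 lower on induction over the uninduced pool (C6, of the terminal pathway), and 0 and 1 over SM22-rtTA (Serping1, the C1 inhibitor). In hypoxia 2 were higher and 2 lower over wild type. Beside Marco and Msr1, 1 of 17 scavenger and pattern recognition receptors was higher and 2 were lower on induction over the uninduced pool, with a median of -0.31, and 1 and 5 over SM22-rtTA. The lipid scavenger Cd36 had 2867 in the induced pool and 4935 in the hypoxic pool, against 5256 in SM22-rtTA, 3890 in the uninduced pool and 5096 in wild type.

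Beside Cd68 and Ctsk, 36 lysosomal genes were measured. On induction 1 was higher and 2 lower over the uninduced pool, with 25 of 36 ratios below 0, and 0 and 6 over SM22-rtTA. The antigen-processing protease Ctss had 1108 in the induced pool and 2114 in the hypoxic pool, against 2679 in SM22-rtTA, 1249 in the uninduced pool and 1574 in wild type. In hypoxia over wild type 2 were higher and 11 lower, with wild type highest for Neu1 and Lgmn, and over the mean of the transgenic pools 0 and 0. Wild type was also the pool of high kidney markers, whose part was not tested.

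Both raised-pressure pools were high in markers of muscle and stratified epithelium, whose source was not tested. Skeletal muscle genes summed to 79543 in the induced pool and 20884 in the hypoxic pool, against 6229 to 7903 in the pools of normal pressure. Genes of stratified epithelium summed to 18626 in the induced pool and 30656 in the hypoxic pool, against 3926 to 4165. Of 18 fibroblast genes, which could carry Ctsk, 1 was higher and 2 lower on induction over the uninduced pool, of 7 osteoclast genes 1 and 1, of 12 dendritic cell genes 0 and 0, of 6 eosinophil, basophil and mast cell genes 0 and 1, and of 13 B and T cell genes 7 and 0. The part of these lists, muscle and stratified epithelium included, in the members' ratios was not tested.

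**Figure D4:**
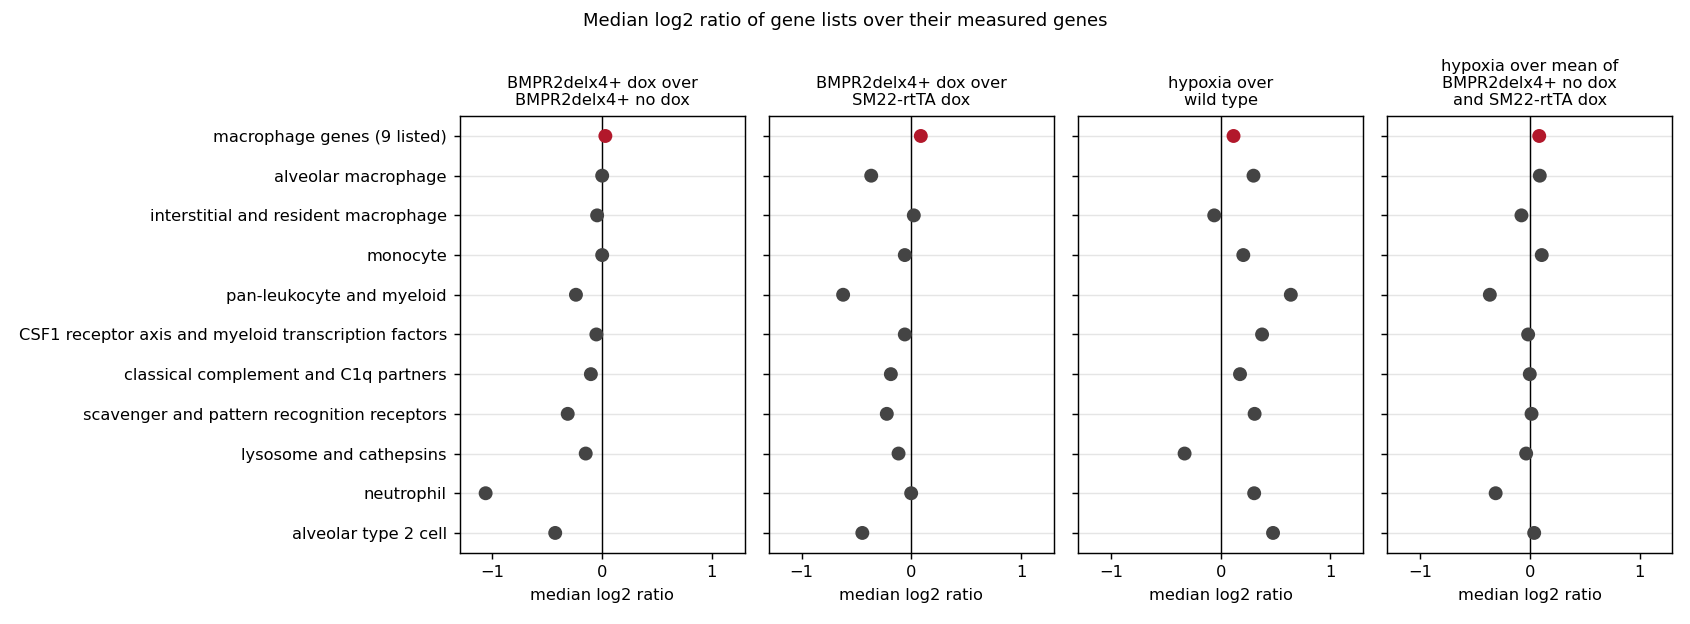
Median log2 ratio (horizontal axis) over the measured genes of each list in 4 comparisons, the macrophage genes in red and other lists in dark grey. The macrophage medians lie between 0.03 and 0.12, while the neutrophil median is -1.06 in the induced over the uninduced pool and the leukocyte median changes side between the comparisons of hypoxia, at 0.64 and -0.36. The neutrophil median takes in genes at the floor in the induced pool.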

How the data were processed

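Whole lung RNA was measured on 5 arrays, 1 pooled sample per condition, per the labels. The values are linear intensities deposited by the authors for 22626 probe sets; how they were summarised and scaled is not given in the sources used. None lay under 50, where 9.85% to 12.48% of an array sat. Log2 values were shifted per array (-0.11 to 0.13) to a shared median over 9047 probe sets at or above the 50th percentile of every array. Names came from the platform annotation, updated by gene ID from RefSeq (20351 of 20380 probe sets with 1 gene matched; 691 had several genes, 1555 none).

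With 1 array per group no test applies, and the few arrays limit precision; a gene was called at 1.5-fold with the higher side above the floor. Members and context lists were chosen with earlier results of these data known. From each list up to 3 called genes with the largest ratio per comparison could be named; C1qc and the genes named as under the floor were chosen after their values were seen. Calls were tested on simulated data with changes set only in genes far above the floor, so members near it were not covered. Alternatives covered scaling, floor, pseudocount, fold, probe set and members, and scaling without wild type, chosen after seeing the data. Python 3.11.15, numpy 2.4.6 and pandas 2.3.3 were used.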

Additional observations from a re-analysis of the deposited data

Results flagged for a closer look

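A pair of probe sets with no gene in the annotation lay outside the comparisons and differed widely between the pools. Probe set 1422411_s_at was under the floor in both BMPR2delx4+ pools (83.4 induced and 173.9 uninduced) and had 1771 in the hypoxic pool, against 2924.8 in SM22-rtTA and 1530 in wild type. Probe set 1449846_at had 163.8 and 378.6 in the induced and uninduced BMPR2delx4+ pools and 2330 in the hypoxic pool, against 3819.2 in SM22-rtTA and 2019 in wild type. Both follow the order of pools seen for Ear3, and neither was given a gene here.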

How the results depend on the processing

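Counts of members called were small, so single genes moved them. For the induced over the uninduced pool the count of 1 became 2 with a pseudocount of 100 in place of the floor (Marco joined, at scaled values under the floor), 0 at 2-fold, and 0 without Lyz2 and Ctsk. For the induced pool over SM22-rtTA the count of 2 became 1 with the floor at the 70th percentile, 0 at 2-fold, 1 with the added need to lie outside the normal-pressure pools, and 1 without Lyz2 and Ctsk. For hypoxia over wild type it was 0 in every alternative. Over the mean of the transgenic pools 0 became 1 (Msr1) with the floor at the 30th percentile. For SM22-rtTA over the uninduced pool 1 became 0 with the floor at the 70th percentile and 0 at 2-fold. The members' medians stayed near 0 and some changed sign: 0.09 became -0.05 for the induced pool over SM22-rtTA with the mean of a gene's probe sets, 0.09 became -0.07 for hypoxia over the transgenic mean with values as deposited, and 0.01 became -0.05 for SM22-rtTA over the uninduced pool with the floor at the 70th percentile and without Lyz2 and Ctsk. Lyz2 stayed between -0.60 and -0.67 over the uninduced pool and between -0.64 and -0.73 over SM22-rtTA. Of 228 further values of single members, 217 moved by less than 0.34 and 11 by more, all for Cd68, Ctsk, Csf1r or C1qb, with no called value changing sign; Cd68 over the floor at the 30th percentile had -1.71 for the induced pool over SM22-rtTA. No paired analysis was possible because each group has 1 array.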

Other observations

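A search made after the values were seen asked which probe sets were at least 2-fold lower in both BMPR2delx4+ pools than in each of the hypoxic, SM22-rtTA and wild-type pools. Of 13948 measured probe sets 8 were, 0.0574%, and 12 were at least 2-fold higher in both. Beside Ear3, Chil3 and the pair with no listed gene, the 8 held the desaturase Scd1 (476.3 in the induced and 450.1 in the uninduced pool, against 1456 in hypoxia, 2167 in SM22-rtTA and 1491 in wild type), Gm2a, a lysosomal activator protein for ganglioside breakdown (245.6 and 291.9, against 622.3, 638.6 and 1375 in the same order), the long non-coding RNA Tug1 (466.1 and 378.7, against 943.6, 973.9 and 953.7), and 1 probe set tied to several genes. The Scd1 values are not from the probe set that stands for that gene. By the latter, Scd1 was not called between SM22-rtTA and the uninduced pool. Both BMPR2delx4+ pools share the transgene and a mouse line, which cannot be told apart here.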
